A study of Mus musculus with 8 samples.

Results

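The dual-specificity phosphatases (DUSPs) of MAP kinases were examined in dendritic cell (DC)-restricted progenitors, the CDPs, of mice on a high-fat or a control diet. The genes were taken by name, as Dusp1, Dusp2, Dusp4, Dusp5, Dusp6, Dusp7, Dusp10 and Dusp16. Of these 8 genes, 7 were found among the 16119 genes of the count table, and Dusp4 was not analysed here. All 7 passed the filter on low counts, as did 15837 genes in all.

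RNA came from CDPs that had been sorted from bone marrow (BM) as Lin- cells with intermediate c-Kit and low Sca-1 that carried CD115 and Flt3, at about 50000 cells per sample. The donors were males of the C57BL/6 background (C57BL/6J in the study's methods), a diet-induced obesity model in which the HFD group had 60 kcal% fat for 16 weeks and the CF group, matched for age, had 10 kcal% fat. The labels name no allele or drug in either group. Each diet had 4 libraries, built from amplified whole-transcriptome RNA, and total counts ran from 28203651 to 48409689 per library. The labels do not say whether a replicate was a single mouse, so p-values measure the spread between these samples, which may be in part technical.

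MAP kinases are switched on when a kinase above them adds phosphate to a threonine and a tyrosine of the activation loop, and DUSPs switch them off by removing both. Dusp1, Dusp2, Dusp4 and Dusp5 are nuclear enzymes whose genes are induced within minutes to hours of a stimulus. Dusp6 and Dusp7 are cytoplasmic and prefer ERK, and Dusp6 is a widely used readout of ERK activity because ERK signalling induces its transcription. Dusp10 and Dusp16 act mainly on p38 and JNK, the stress-activated kinases. The study examined how obesity acts on CDPs and followed p38 as 1 of their pathways, and the question put to these counts was whether the transcripts of these phosphatases differed between the diets. Transcript levels do not report phosphatase or kinase activity.

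Before the results, the libraries were checked for identity. Kit, Csf1r (CD115) and Flt3, the sort markers, were present in every library. Kit was at 34.2 to 53.6 CPM (counts scaled to the TMM library size) in HFD and at 40.3 to 52.5 CPM in CF, and Csf1r was at 79.4 to 111.9 and 101.0 to 132.9 CPM. Flt3 was at 88.8 CPM in HFD replicate 1 and at 227.5 to 378.0 CPM in the other 7 libraries. HFD replicate 1 also stood apart by late neutrophil genes (S100a8, S100a9, Ngp, Ltf, Camp, Lcn2, Mmp8, Retnlg, Cxcr2), whose summed level was 18927 CPM there, 890 to 3361 CPM in the other HFD libraries and 1821 to 6181 CPM in CF. All 9 of these genes were highest in HFD replicate 1 and lowest in HFD replicate 4, and none was at 0 in all libraries. Erythroid genes summed to 357 CPM in HFD replicate 1 and to 66.4 to 107 CPM in the others. Each member and list is therefore also given without HFD replicate 1.

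The promoters of the members are shown first for the 4 genes on which the results turn. Each run holds the 250 bases upstream of the RefSeq transcription start on GRCm38.p6, read 5′ to 3′ on the strand of the gene. The coordinates are chr17:26508473-26508722 (- strand) for Dusp1, chr2:127335909-127336158 (+ strand) for Dusp2, chr19:53528895-53529144 (+ strand) for Dusp5 and chr10:99262981-99263230 (+ strand) for Dusp6. Capitals mark, in Dusp1, a cAMP response element, its half-sites and an E-box. They mark an E-box in Dusp2, a pair of adjacent CArG boxes and a response element half-site in Dusp5, and a CCAAT box, read on the other strand, in Dusp6.
Dusp1: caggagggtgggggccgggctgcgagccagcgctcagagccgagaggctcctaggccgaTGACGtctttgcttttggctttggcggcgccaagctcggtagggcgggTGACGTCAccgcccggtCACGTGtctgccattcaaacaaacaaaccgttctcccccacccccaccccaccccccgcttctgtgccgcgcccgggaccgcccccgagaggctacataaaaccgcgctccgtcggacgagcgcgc
Dusp2: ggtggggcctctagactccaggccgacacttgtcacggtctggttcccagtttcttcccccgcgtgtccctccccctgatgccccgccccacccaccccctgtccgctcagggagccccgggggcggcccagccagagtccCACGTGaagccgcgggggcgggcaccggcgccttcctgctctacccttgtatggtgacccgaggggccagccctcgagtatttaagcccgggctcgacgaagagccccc
Dusp5: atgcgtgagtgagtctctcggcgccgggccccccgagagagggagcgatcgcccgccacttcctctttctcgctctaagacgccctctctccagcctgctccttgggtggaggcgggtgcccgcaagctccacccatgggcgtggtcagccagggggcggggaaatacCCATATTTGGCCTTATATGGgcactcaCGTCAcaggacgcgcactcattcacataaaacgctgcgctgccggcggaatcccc
Dusp6: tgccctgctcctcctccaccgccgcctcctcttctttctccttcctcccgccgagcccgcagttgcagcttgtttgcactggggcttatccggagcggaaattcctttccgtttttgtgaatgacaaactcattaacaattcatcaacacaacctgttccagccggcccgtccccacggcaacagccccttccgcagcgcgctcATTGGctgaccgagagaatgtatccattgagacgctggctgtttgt

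Motifs were searched on both strands of windows from 250 bases before to 50 after the start, which RefSeq gave for all 7 genes. The cAMP response element was searched as TGACGTCA and its half-site as TGACG. The letters of the AP-1 site were TGANTCA, those of the E-box were CACGTG, those of the CCAAT box were as in its name, those of the GC box were GGGCGG and those of the TATA box were TATAAA. The CArG box, the site of serum response factor, was searched as CC, then 6 bases that are each A or T, then GG. Half-sites lie within the full element, so both were counted there. Dusp1 was the 1 member with the full element, 143 bases before its start, and it had an E-box 126 bases before. The full element was in 1.79% of 32851 promoter windows of the same length and the E-box, which Dusp2 also had 109 bases before its start, in 7.15%. Dusp5 was the 1 member with CArG boxes, which began 82 and 72 bases before its start and which 1.63% of windows held. The half-site was in 4 of 7 members (Dusp1, Dusp2, Dusp5 and Dusp16) and in 20.8% of windows. A CCAAT box was in 4 of 7 members (Dusp6, Dusp7, Dusp10 and Dusp16) and in 37.4% of windows, and a GC box in 6 of 7, all but Dusp6, against 35.7%. The AP-1 site and the TATA box, held by 7.81% and 13.6% of windows, were in 0 of 7. GC content ran from 57.3% for Dusp6 to 78.7% for Dusp7. A match of letters is a description of the window, not a site shown to be used.

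Between the diets, 4 members were higher and 3 lower in HFD, and their median log2 fold change (HFD against CF) was 0.22, beside a median of 0.055 and 59.7% of genes higher over all 15837 genes tested. By edgeR's quasi-likelihood test with Benjamini-Hochberg adjustment over all genes, 0 of 7 members passed an adjusted p of 0.05, beside 67 genes or 0.423% of all tested. At an unadjusted p under 0.05 there were 2 of 7 members, Dusp6 and Dusp2, beside 8.56% of all genes. DESeq2 called 1 of 7, Dusp6, beside 3.58% of all genes. The 2 diets did not overlap for 1 of 7 members, Dusp6, beside 6.16% of all genes. With 7 members these counts are too small to set the family apart from the background.

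**Figure D1:**
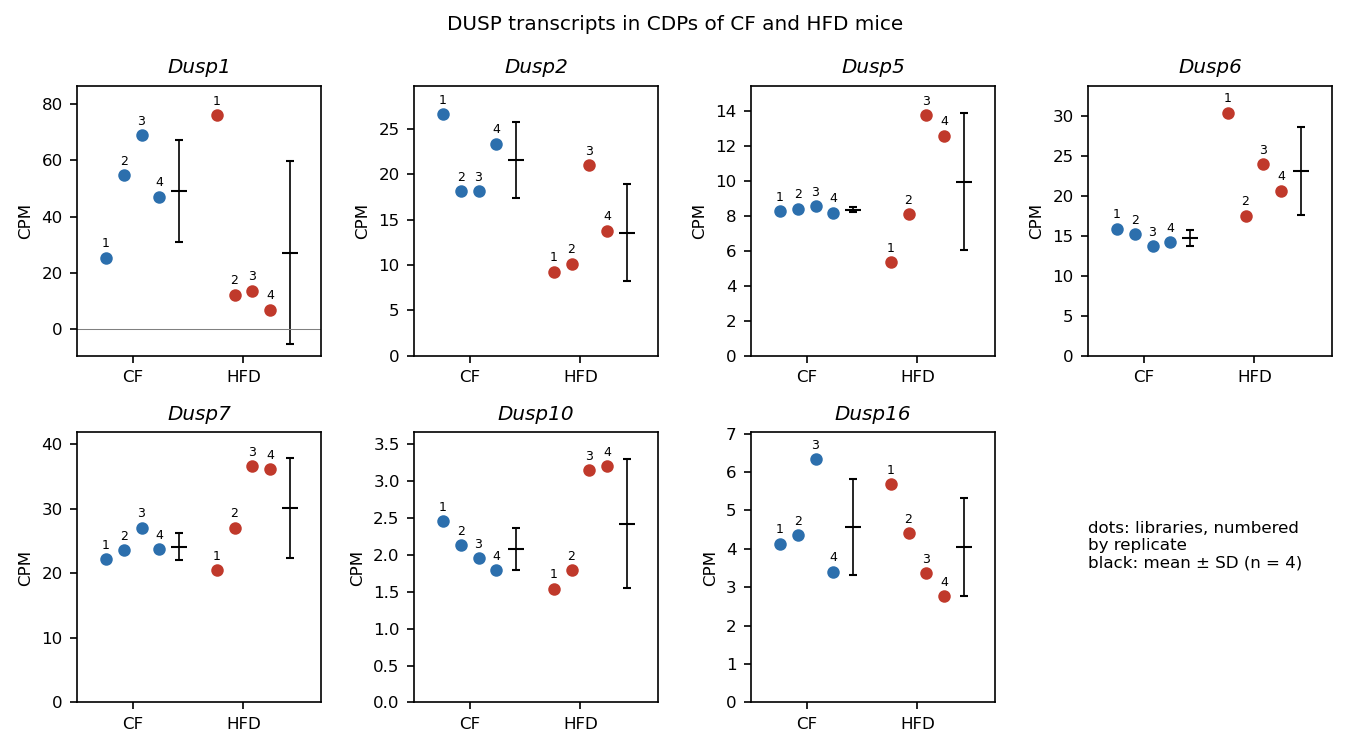
Level of each of the 7 DUSP genes in CPM (vertical axes, each with its own scale that includes 0), with 1 dot per library, numbered by replicate, CF beside HFD, and black bars for the mean ± SD (n = 4 per diet). Dusp6 is the 1 gene whose diets do not overlap, and HFD replicate 1 stands at 76.0 CPM for Dusp1 while the other HFD libraries lie at 6.92 to 13.6 CPM.

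Dusp6, the cytoplasmic phosphatase of ERK (ENSMUSG00000019960, chromosome 10 of GRCm38, 99263231 to 99267489, + strand), was higher in every HFD library than in any CF library. Its level was 30.4, 17.5, 23.9 and 20.6 CPM in HFD replicates 1 to 4 and 15.9, 15.2, 13.7 and 14.2 CPM in CF replicates 1 to 4. The means were 23.1 ± 5.52 and 14.8 ± 0.993 CPM (SD, n = 4 each), a 1.57-fold difference. The CF libraries were tight and the HFD libraries spread upward from just above them, with replicate 1 highest and replicate 2 lowest. The log2 fold change was 0.65 (SE 0.17) with an unadjusted p of 0.0042 and an adjusted p of 0.168 by edgeR. The exact two-sided permutation test gave p = 0.029, the smallest that 4 against 4 libraries allow. Reads behind these values numbered 435 to 947 per library.

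The difference in Dusp6 was at 0.49 without HFD replicate 1, its highest library, and 0.76 without HFD replicate 2. Over the 19 alternatives its direction was the same in 19 and its unadjusted p was under 0.05 in 19. It passed the adjusted threshold in 2, DESeq2 (adjusted p = 0.0297) and edgeR with the mean of the neutrophil list as a covariate (adjusted p = 0.0336), and its adjusted p ranged from 0.0297 to 0.802. With that covariate, chosen after seeing the data, 4.23% of all genes were called.

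Plasmacytoid DC genes (Siglech, Bst2, Ly6d, Cox6a2, Ccr9, Spib) were also higher in HFD in 6 of 6 cases (median log2 fold change 1.31). Their sum was 99.7, 230, 216 and 353 CPM in HFD replicates 1 to 4 and 83.2 to 128 CPM in CF, and 5 of 6 passed an unadjusted p of 0.05. B cell genes were higher in 7 of 8 cases. Their sums were 107, 77.1, 112 and 48.4 CPM in HFD replicates 1 to 4 and 50.5 to 79.8 CPM in CF. Of these genes 5 of 8 had an unadjusted p under 0.05, all higher, and 2 of 8 did not overlap between the diets, as 2 of 6 plasmacytoid DC genes did not, beside 8.56% and 6.16% of all genes. HFD replicate 1, where Dusp6 was highest, had a plasmacytoid DC sum within the CF range and a B cell sum above it. Without that library, 0 of 6 plasmacytoid DC genes and 2 of 8 B cell genes were lower in HFD. The part of these cells in the Dusp6 difference was not tested. In sorted bulk RNA, a change in the share of a cell type and a change in RNA per cell cannot be told apart.

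Dusp7, the close relative of Dusp6 (ENSMUSG00000053716, chromosome 9, 106368632 to 106375724, + strand), did not separate the diets. Its level was 20.4, 27.1, 36.6 and 36.1 CPM in HFD replicates 1 to 4 and 22.1, 23.6, 27.1 and 23.7 CPM in CF. HFD replicates 3 and 4 lay above all CF libraries and replicate 1 below all of them. The means were 30.1 ± 7.77 and 24.1 ± 2.09 CPM (SD, n = 4 each), with a log2 fold change of 0.32 (SE 0.19, adjusted p = 0.755 by edgeR) and an exact permutation p of 0.286. Leaving out a library moved it from 0.18 (without HFD replicate 4) to 0.46 without HFD replicate 1, where the unadjusted p was 0.0067 and the adjusted p 0.142 by edgeR. The library that was highest for Dusp6 was thus lowest for Dusp7.

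Dusp1, the inducible nuclear phosphatase of p38, JNK and ERK (ENSMUSG00000024190, chromosome 17, 26505590 to 26562128, - strand), was the most variable member. Its level was 76.0, 12.3, 13.6 and 6.92 CPM in HFD replicates 1 to 4 and 25.4, 54.8, 69.0 and 47.1 CPM in CF. HFD replicate 1 was above all CF libraries and the other 3 HFD libraries were below all of them. The highest HFD library exceeded the lowest 11.0-fold, and the coefficient of variation was 120% in HFD and 37.1% in CF. Counts ran from 285 to 2368 per library, and at the lowest of these counting alone gives a coefficient of variation of 5.92%.

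Over all 8 libraries mean Dusp1 levels were 27.2 ± 32.7 CPM for HFD and 49.1 ± 18.2 CPM for CF (SD, n = 4 each), and the log2 fold change was -0.85 (SE 0.72, adjusted p = 0.843 by edgeR). The exact permutation test, on mean log2 CPM of 4.11 and 5.53, gave p = 0.143. Other fits of the same 8 libraries gave -0.73 with library size alone, -0.87 with DESeq2, -1.35 with a linear model on log2(CPM + 1), -1.46 with limma voom (unadjusted p = 0.0476, adjusted p = 0.552) and -2.04 with voom and sample weights (adjusted p = 0.0588). Without HFD replicate 1 it was -2.17 (SE 0.37) with an adjusted p of 0.0383 by edgeR, in a fit that called 1.26% of all genes. That library thus decided whether Dusp1 was called. Without it the neutrophil genes were also lower in HFD in 9 of 9 cases (median log2 difference -1.58), and their part was not tested. With the neutrophil list as covariate, chosen after seeing the data, and all 8 libraries, Dusp1 was at -0.90 (SE 0.22, adjusted p = 0.0586 by edgeR). The direction of Dusp1 was the same in 19 of 19 alternatives. The exons of Dusp1 overlap those of Ergic1 on the other strand by 11 bases.

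Dusp2, a nuclear phosphatase of ERK and p38 found mainly in blood cells (ENSMUSG00000027368, chromosome 2, 127336159 to 127338376, + strand), was lower in 3 of 4 HFD libraries than in any CF library. Its level was 9.27, 10.1, 21.02 and 13.8 CPM in HFD replicates 1 to 4 and 26.6, 18.1, 18.1 and 23.3 CPM in CF. HFD replicate 3 lay within the CF range. The means were 13.6 ± 5.35 and 21.5 ± 4.18 CPM (SD, n = 4 each), 1.59-fold lower in HFD. The log2 fold change was -0.67 (SE 0.27) with an unadjusted p of 0.0347 and an adjusted p of 0.499 by edgeR, and the exact permutation p was 0.0857.

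Leaving out a library moved the log2 fold change of Dusp2 from -0.96 (without HFD replicate 3) to -0.52 (without HFD replicate 1), with the same direction in 19 of 19 alternatives. Its unadjusted p was under 0.05 in 11 of 19. It was called in 1, with the neutrophil list as covariate (log2 fold change -0.85, adjusted p = 0.0352 by edgeR). Unlike Dusp1, Dusp2 was low in HFD replicate 1.

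Dusp5, the nuclear phosphatase specific to ERK (ENSMUSG00000034765, chromosome 19, 53529109 to 53542431, + strand), was more spread in HFD than in CF, and its means did not differ detectably. Its level was 5.36, 8.09, 13.7 and 12.6 CPM in HFD replicates 1 to 4 and 8.27, 8.40, 8.53 and 8.19 CPM in CF. HFD libraries 1 and 2 lay below all CF libraries and libraries 3 and 4 above them. The coefficient of variation was 39.3% in HFD and 1.82% in CF, a difference that was not tested. It was larger in HFD for every member. Counts of Dusp5 were 264 to 320 in CF. Counting alone gives a coefficient of variation of 7.74% at 167 counts and 4.79% at 435 counts. The CF value lies below this counting error, so it does not measure how steady the level was. The means were 9.94 ± 3.91 and 8.35 ± 0.152 CPM (SD, n = 4 each), with a log2 fold change of 0.25 (SE 0.27, adjusted p = 0.886 by edgeR; exact permutation p = 0.714). It was 0.057 without HFD replicate 3, 0.082 without HFD replicate 4 and 0.46 without HFD replicate 1, where the unadjusted p was 0.032 and the adjusted p 0.282 by edgeR. An antisense gene, AC137853.2, shares 547 exon bases with Dusp5, and reads of the pair cannot be told apart if strand was not used in counting.

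Dusp10 and Dusp16, the phosphatases of p38 and JNK, were the lowest of the members and did not differ detectably between the diets at this depth. Dusp10 (ENSMUSG00000039384, chromosome 1, 184013302 to 184075636, + strand) was at 1.54, 1.79, 3.15 and 3.20 CPM in HFD replicates 1 to 4 and at 2.45, 2.13, 1.95 and 1.79 CPM in CF. HFD replicates 3 and 4 were above all CF libraries, as for Dusp5 and Dusp7. Its log2 fold change was 0.22 (SE 0.29, adjusted p = 0.92 by edgeR; exact permutation p = 0.6), from 48 to 132 counts per library. It was 0.018 without HFD replicate 4, 0.069 without HFD replicate 3 and 0.39 without HFD replicate 1 (adjusted p = 0.536 by edgeR).

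Dusp16 (ENSMUSG00000030203, chromosome 6, 134715468 to 134792625, - strand) was at 5.68, 4.405, 3.36 and 2.77 CPM in HFD replicates 1 to 4 and at 4.13, 4.36, 6.33 and 3.40 CPM in CF. The diets overlapped and CF replicate 3 was the highest library. Its log2 fold change was -0.17 (SE 0.28, adjusted p = 0.937 by edgeR; exact permutation p = 0.543), and its direction turned when library size alone was used for scaling (0.038) and without CF replicate 3 (0.030). Without HFD replicate 1 it was -0.38 (adjusted p = 0.543 by edgeR).

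**Figure D2:**
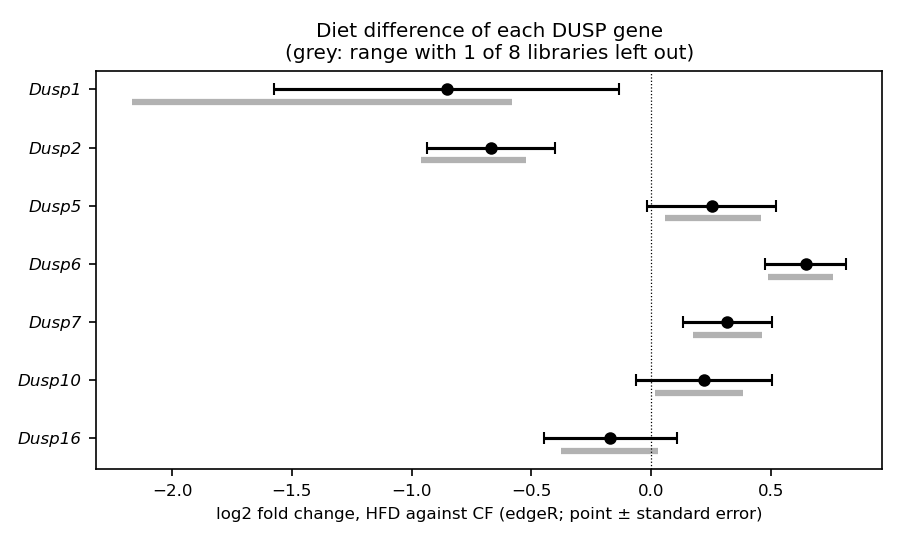
Log2 fold change, HFD against CF, of each of the 7 DUSP genes (horizontal axis), with a black point ± standard error for the edgeR fit of all 8 libraries and a grey bar for the range with 1 of 8 libraries left out. The grey bar lies above 0 for Dusp6 (0.49 to 0.76), Dusp7 (0.18 to 0.46), Dusp5 (0.057 to 0.46) and Dusp10 (0.018 to 0.39) and below 0 for Dusp2 (-0.96 to -0.52) and Dusp1 (-2.17 to -0.58), and it crosses 0 for Dusp16.

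Set by level per exon length (FPKM, mean of 8 libraries), the order was Dusp1 at 11.5, Dusp2 at 8.76, Dusp7 at 8.07, Dusp6 at 6.05, Dusp5 at 3.70, Dusp10 at 0.740 and Dusp16 at 0.552. The lowest and highest libraries were 2.09 and 23.0 FPKM for Dusp1, 4.63 and 13.3 for Dusp2, 6.09 and 10.9 for Dusp7, and 4.37 and 9.70 for Dusp6. The ranges of neighbours overlapped in all cases but that of Dusp5 (2.17 to 5.56 FPKM) and Dusp10 (0.506 to 1.05 FPKM). Dusp1 exceeded Dusp2 in 4 of 8 libraries. Dusp2 exceeded Dusp7 in 4 of 4 CF libraries and 0 of 4 HFD libraries, so the order of the first members differed by diet. In HFD the mean FPKM was 8.96 for Dusp7, 8.21 for Dusp1, 7.38 for Dusp6 and 6.77 for Dusp2, where Dusp1 rested on replicate 1 (23.0 FPKM) and lay below the other 3 genes in replicates 2 to 4, at 2.09 to 4.10 FPKM. In CF the mean FPKM was 14.8 for Dusp1, 10.8 for Dusp2, 7.19 for Dusp7 and 4.71 for Dusp6. Dusp10 and Dusp16 lay below the other members in every library.

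The members did not move as a block across libraries. Correlations of log2 CPM were computed over the 8 libraries for 21 pairs of members and for the 7 members with the mean of the immediate early genes and of the neutrophil genes, 35 relations in all. By exact permutation with Benjamini-Hochberg adjustment, 6 of 35 passed 0.05 for Pearson's r and 1 of 35 for Spearman's rho. The relation that passed both was that of Dusp1 with the immediate early genes.

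Immediate early genes, such as Fos, Jun and Egr1, are transcribed within minutes of a stimulus or of tissue handling, and Dusp1 is usually induced with them. Their mean log2 CPM was 5.08, 3.67, 3.61 and 3.18 in HFD replicates 1 to 4 and 4.57, 5.08, 5.20 and 4.85 in CF. The order of libraries was close to that of Dusp1, with r = 0.985 (exact permutation p = 0.000174, adjusted p = 0.0061) and rho = 0.952 (exact permutation p = 0.00114, adjusted p = 0.0399). Without the 2 libraries farthest from the median, HFD replicates 3 and 4, r was 0.972. Within diets, r was 0.998 in HFD and 0.978 in CF, over 4 libraries each. Dusp1 had an r of 0.891 with the neutrophil genes (exact permutation p = 0.00313, adjusted p = 0.0219) and a rho of 0.905 (exact permutation p = 0.00456, adjusted p = 0.0799), and 0.823 without the 2 farthest libraries. The part of neutrophils or handling in the level of Dusp1 was not tested.

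**Figure D3:**
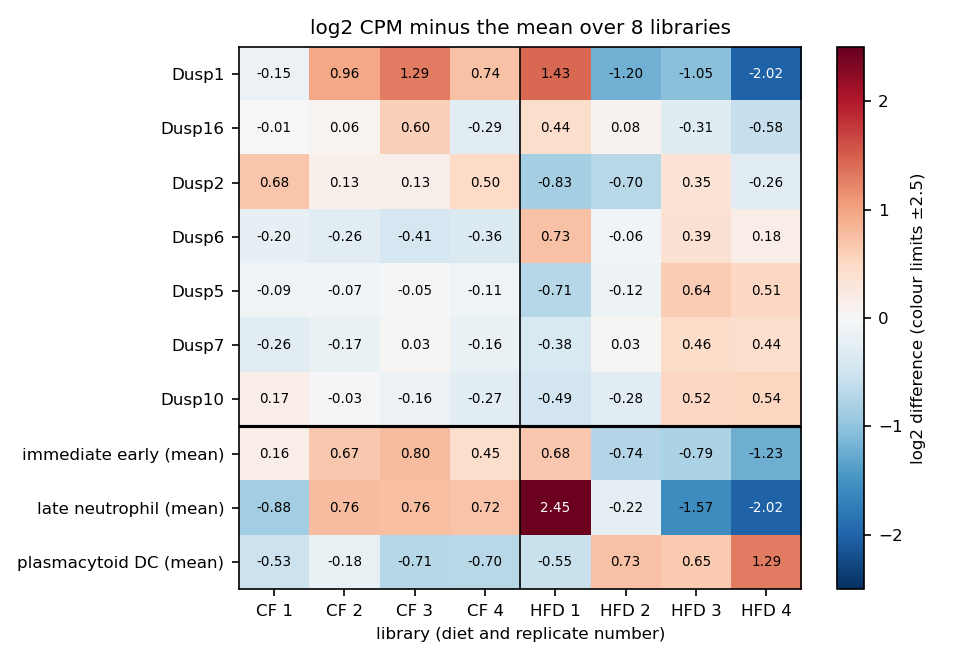
Level of the 7 DUSP genes and of the immediate early, late neutrophil and plasmacytoid DC lists (rows) in each library (columns), coloured and printed as log2 CPM minus the mean of the 8 libraries. Dusp1 runs with the immediate early list, high in HFD replicate 1 and low in HFD replicates 2 to 4, while Dusp5, Dusp7 and Dusp10 are low in HFD replicate 1 and high in replicates 3 and 4.

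Dusp5 and Dusp10 ran opposite to the neutrophil genes, and Dusp7 and Dusp10 ran with Dusp5, where r but not rho passed the adjusted threshold. For Dusp5 and Dusp7, r was 0.923 (exact permutation p = 0.00238, adjusted p = 0.0208) and 0.887 without the 2 farthest libraries, with a rho of 0.786 (exact permutation p = 0.0279, adjusted p = 0.163). For Dusp5 and Dusp10, r was 0.915 (exact permutation p = 0.00191, adjusted p = 0.0208) and 0.863 without the 2 farthest libraries, with a rho of 0.881 (exact permutation p = 0.00724, adjusted p = 0.0845). Within CF, r was 0.77 for Dusp5 and Dusp7 and 0.0049 for Dusp5 and Dusp10, and within HFD it was 0.997 and 0.968. Dusp5 spanned only 8.19 to 8.53 CPM in CF, so an r within CF cannot show on which libraries these relations rested. With the neutrophil mean, r was -0.896 for Dusp5 (exact permutation p = 0.00548, adjusted p = 0.032), with a rho of -0.595 (exact permutation p = 0.132), and -0.908 for Dusp10 (exact permutation p = 0.00129, adjusted p = 0.0208), with a rho of -0.762 (exact permutation p = 0.0368, adjusted p = 0.184). Without the 2 farthest libraries these r were -0.706 and -0.814. Within CF, r for Dusp5 was 0.362, over the same narrow span of Dusp5. For Dusp7, r with the neutrophil mean was -0.798 (exact permutation p = 0.0168, adjusted p = 0.0824), 0.663 within CF and -0.983 within HFD. Dusp6 had an r of 0.060 with the neutrophil mean (exact permutation p = 0.885), which rested on HFD replicate 1. It was -0.877 without that library, -0.87 without the 2 farthest, 0.623 within HFD and -0.762 within CF.

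The 3 protein-coding genes most like each member were sought by Pearson's r over the 8 libraries among 10158 genes, as a description. For Dusp1 they were Snx20 (r = 0.995), Oas2 (0.994), an interferon-induced antiviral enzyme, and Fos (0.994). For Dusp2 they were Cd69 (0.982), an early activation antigen of leukocytes, Sh2b3 (0.965), an adaptor that restrains cytokine signalling, and Dhx33 (0.952). Dusp6 was most like Fam129c (0.978), Ankrd46 (0.973) and Narfl (0.966), and Dusp7 most like Vmac (0.961), Elp3 (0.960) and Zfp1 (0.956). Those of Dusp5 were Ptp4a3 (0.979), another phosphatase, Egln1 (0.979), the oxygen-sensing prolyl hydroxylase, and Spout1 (0.978). Dusp10 was nearest to Ppie (0.981), Cbx1 (0.973) and Rps28 (0.972), and Dusp16 to Fzd7 (0.965), a Wnt receptor, Wdfy2 (0.954) and Wdr44 (0.949).

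The rest of the MAP kinase pathway was read through 8 lists, of which 96 genes were tested. By edgeR, 0 of 96 passed the adjusted threshold and 11 an unadjusted p of 0.05, beside 0.423% and 8.56% of all genes, and DESeq2 called 3, all immediate early genes, beside 3.58% of all genes. Without HFD replicate 1, by the difference in mean log2 CPM, the genes lower in HFD numbered 4 of 11 other DUSPs, 2 of 6 other phosphatases, 4 of 8 MAP kinases, 6 of 7 MAP kinase kinases (median -0.11), 13 of 17 kinases above them (median -0.12), 10 of 20 effectors, 2 of 10 ERK targets and 15 of 17 immediate early genes (median -1.32).

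Other DUSPs were higher in 6 of 11 cases (median log2 fold change 0.071), and 0 of 11 had an unadjusted p under 0.05. Dusp8, an inducible phosphatase of JNK and p38, had the largest fold change (2.13, adjusted p = 0.732 by edgeR) but rested on HFD replicate 1, at 2.47 CPM, with 0 to 0.378 CPM in the other 7 libraries. Dusp3, a small phosphatase of ERK and JNK, was at 6.49 ± 1.48 CPM in HFD and 8.29 ± 1.57 CPM in CF (SD, n = 4 each; log2 fold change -0.35, adjusted p = 0.752 by edgeR).

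Among tyrosine and serine/threonine phosphatases of MAP kinases, 5 of 6 were higher in HFD (median 0.21). Ppm1d, the phosphatase of p38 also called Wip1, was at 16.1, 13.4, 14.5 and 15.5 CPM in HFD replicates 1 to 4 and 12.1, 12.98, 13.2 and 11.6 CPM in CF. Its diets did not overlap, by a narrow gap, with a log2 fold change of 0.25 (SE 0.11, unadjusted p = 0.0415, adjusted p = 0.539 by edgeR). Ppp2cb, a catalytic subunit of PP2A, had a log2 fold change of 0.33 (adjusted p = 0.626 by edgeR). It was at 31.1 CPM in HFD replicate 1, 19.8 to 21.5 CPM in the other HFD libraries and 17.1 to 19.5 CPM in CF. Its diets did not overlap either, again by a narrow gap, so that they were apart for 2 of 6 genes, beside 6.16% of all genes.

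Of the MAP kinases, 6 of 8 were higher, with a median of 0.093. Mapk14, p38 alpha, was at 46.4, 67.5, 59.7 and 52.2 CPM in HFD replicates 1 to 4 and 46.0, 33.6, 64.0 and 31.2 CPM in CF (log2 fold change 0.37, adjusted p = 0.781 by edgeR). Mapk11, p38 beta, was scarce, at 0.748 ± 0.282 CPM in HFD and 0.336 ± 0.107 CPM in CF (SD, n = 4 each; log2 fold change 1.15, adjusted p = 0.442 by edgeR). Kinases upstream of these were near the median of all genes, at 0.020 over 7 MAP kinase kinases and -0.052 over 17 kinases above them. Map2k7, which acts on JNK (-0.47, adjusted p = 0.514 by edgeR), and Map3k12 (-0.60, adjusted p = 0.381) each had an unadjusted p under 0.05, and Map2k5 (-0.18) and Map3k20 (-0.16) did not. Kinases and transcription factors that MAP kinases activate were higher in 10 of 20 cases, with a median of -0.0014. Rps6ka3 (0.45) and Rps6ka1 (0.25) had the lowest p of these, and neither had an unadjusted p under 0.05.

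Other targets and feedback inhibitors of ERK were higher in 8 of 10 cases, with a median of 0.23, and 3 of 10 had an unadjusted p under 0.05, all higher, beside 8.56% of all genes. Etv5, an ETS factor induced by ERK signalling, was at 4.69, 8.09, 11.1 and 13.1 CPM in HFD replicates 1 to 4 and 4.78, 4.52, 5.64 and 3.56 CPM in CF (log2 fold change 1.00, SE 0.30, adjusted p = 0.262 by edgeR). Its lowest HFD library was replicate 1, where Dusp6 was highest. Without that library edgeR called Etv5 and, of this list, also Epha2, a receptor tyrosine kinase at 15.5, 34.8, 38.1 and 46.3 CPM in HFD replicates 1 to 4 and 21.8 to 25.9 CPM in CF, in a fit that called 1.26% of all genes. The plasmacytoid DC sum was likewise at 216 to 353 CPM in HFD replicates 2 to 4 and at 99.7 CPM in replicate 1, against 83.2 to 128 CPM in CF, and its part in these differences was not tested. Myc had a log2 fold change of 0.39 (adjusted p = 0.538 by edgeR) and Ccnd1, cyclin D1, one of 0.73 (adjusted p = 0.553). Spry2, a feedback inhibitor of receptor signalling, was at 2.68 ± 0.875 and 2.31 ± 0.516 CPM, and Spred1 at 28.4 ± 4.97 and 24.3 ± 2.72 CPM (SD, n = 4 each). Epha2, Spry2, Spred1, Ccnd1, Jund and Egr1 were named after their values were seen.

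Immediate early genes were lower in HFD in 16 of 17 cases (median log2 fold change -0.86), and 4 of 17 (Jun, Fosb, Jund and Egr1) had an unadjusted p under 0.05, beside 8.56% of all genes. The diets did not overlap for 3 of 17, beside 6.16%. Jun was at 58.8, 29.6, 55.0 and 34.2 CPM in HFD replicates 1 to 4 and 82.5, 77.4, 96.8 and 79.6 CPM in CF (log2 fold change -0.92, SE 0.22, adjusted p = 0.144 by edgeR). Fosb had a log2 fold change of -1.65 (adjusted p = 0.204). Fos was at 114.9, 20.5, 21.99 and 13.5 CPM in HFD and 45.8, 100.1, 137.7 and 88.0 CPM in CF, high in HFD replicate 1 as Dusp1 was, while Jun and Fosb were below CF there too. Without HFD replicate 1, edgeR called 11 of 17, all lower, beside 1.26% of all genes. In the same 7 libraries the neutrophil genes were lower in HFD in 9 of 9 cases (median log2 difference -1.58), the primary granule genes in 5 of 5 and the mast cell and basophil genes in 6 of 6, and their part in the difference was not tested. Dusp2 was lower in HFD replicate 1, where Fos was high, and r of Dusp2 with the list was 0.172 (exact permutation p = 0.666), 0.511 without that library, -0.568 within HFD and -0.971 within CF.

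**Figure D4:**
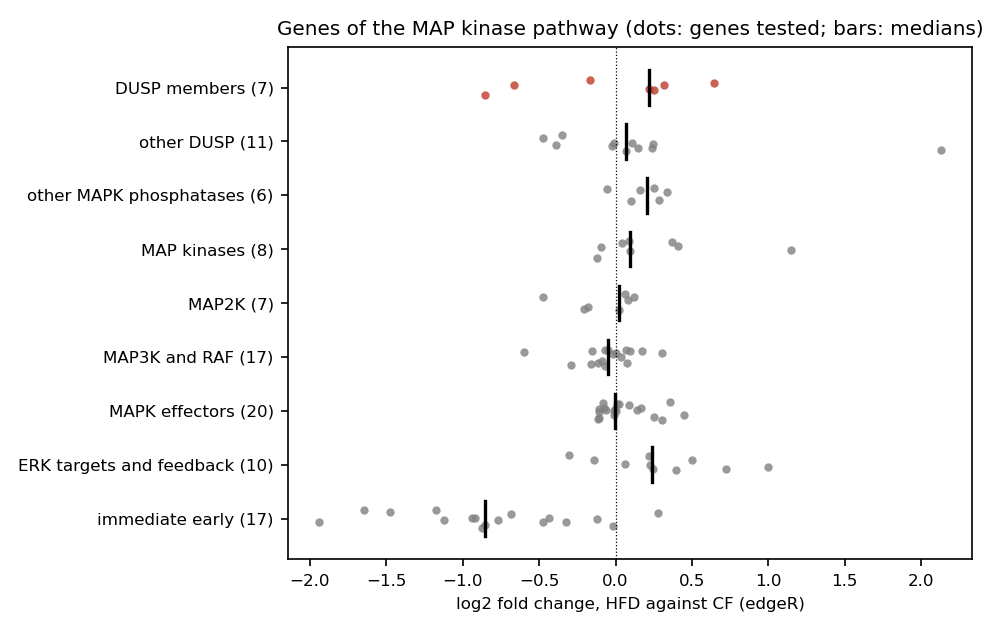
Log2 fold change, HFD against CF, of the 7 DUSP genes and of each tested gene of 8 MAP kinase pathway lists (dots; horizontal axis), with a black bar at the median of each list. The median of all 15837 genes is 0.055. Immediate early genes lie below 0 in 16 of 17 cases, and the other lists have medians between -0.052 and 0.23.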

How the data were processed

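The authors deposited raw counts per gene for 8 libraries of CDPs. Per the paper and the submitters' processing notes, reads were trimmed with cutadapt, checked with FastQC, aligned to GRCm38 with HISAT2 and counted with StringTie on GENCODE genes. Whether strand was used, and the annotation release, are not given in the sources used here. Column labels were matched to samples by the sample number in the titles. Identifiers were matched to GENCODE vM21 (16067 of 16119), and promoters came from RefSeq on GRCm38.p6.

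Counts were fitted in R 4.3.3 with edgeR 4.0.16 (filterByExpr, which left out 282 genes, TMM, robust quasi-likelihood F test, diet as the only term), with adjustment over all genes and a threshold of 0.05. CPM used TMM-scaled library sizes, and log2 CPM a prior count of 2. Permutation tests were exact and two-sided, over 70 splits for levels and over all orders of the 8 libraries for correlations. FPKM was computed here from CPM and summed exon length. Totals of 28203651 to 48409689 limit counting error only. Scripts were tested on simulated data.

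Alternatives were RLE, library size alone, protein-coding genes alone, DESeq2 1.42.0, limma 3.58.1 voom with and without sample weights, a linear model on log2(CPM + 1), no filter, at least 1 CPM in 4 libraries, a block for replicate number, each library left out, and, added after seeing the data, the neutrophil mean as covariate. The members, lists and tests were chosen with earlier results of these data known. Genes named are the members, the 2 of lowest p in each list, the 3 most like each member, and sort markers, besides those stated as named later. Among tested marker lists, the counts higher in HFD were 3 of 5 for primary granule, 4 of 7 for monocyte and macrophage, 2 of 4 for T and NK cell, 8 of 8 for erythroid, 5 of 6 for mast cell and basophil, 8 of 9 for neutrophil and 3 of 8 for sort markers, with 0 called. Without HFD replicate 1 the genes lower in HFD were 9 of 9 for neutrophil (median log2 difference -1.58), 6 of 6 for mast cell and basophil, 5 of 5 for primary granule, 5 of 7 for monocyte and macrophage, 2 of 4 for T and NK cell, 4 of 8 for erythroid and 4 of 8 for sort markers.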

Additional observations from a re-analysis of the deposited data

Results flagged for a closer look

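In 2 of 48 sets of 4 libraries of 1 diet (the level of each member and the mean log2 CPM of each list), 1 library stood farther from the others than Dixon's 95% limit for 4 values. Chance flags about 1 in 20 such sets. The mean log2 CPM of the neutrophil list was 6.85 in CF replicate 1 and 8.44 to 8.49 in the other CF libraries, and CF replicate 1 was also the lowest CF library for Dusp1. The mean log2 CPM of the sort marker list was 6.09 in CF replicate 4 and 6.07 in the other CF libraries, a gap that is small in size.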

How the results depend on the processing

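Over 7 members and 19 alternatives, 125 of 133 log2 fold changes kept their direction and their side of the threshold. The direction turned for Dusp16 with library size alone (0.038) and without CF replicate 3 (0.030; range without a library -0.38 to 0.030), and for Dusp5 (-0.021) and Dusp10 (-0.0032) with the neutrophil covariate, all close to 0. Library size alone moved the median log2 fold change of all genes from 0.055 to 0.25. The 67 genes called became 108 with library size alone, 567 with DESeq2, 282 with voom and sample weights, 670 with the neutrophil covariate, and 0 with protein-coding genes alone or the linear model. Leaving out a library gave 0 (without HFD replicate 3 or CF replicate 1, 2 or 3) to 200 (without HFD replicate 1). Members called were 0 in the fit reported, 1 with DESeq2, 2 with the covariate and 0 to 1 without a library, the 1 being Dusp1 without HFD replicate 1. Pathway genes called were 0, 3 with DESeq2, 9 with sample weights, 7 with the covariate and 0 to 13 without a library (13 without HFD replicate 1). With the replicate block, 0 genes, 0 members and 0 pathway genes were called and Dusp1 was at -1.61; same-numbered samples did not deviate together (correlations -0.44 to -0.078), so the numbers do not pair them. The causes were not tested. Dusp10, at 48 to 132 counts per library, had the least depth.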
